A study of Homo sapiens with 8 samples.

Results

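The genes described here are EGR1, EGR2, EGR3, IER2, IER3, KLF2, KLF4, KLF6, KLF10 and NR4A1, a set of 10 immediate early genes, taken by their symbols as a gene group. Of these, 9 were found by the platform's gene symbol, each with 1 row, among 17492 genes in the deposited table, and EGR2 was not matched to a row and was not analysed here. Expression was measured on Affymetrix arrays in subcutaneous tumours of SkMel147, an established human melanoma cell line, in BALB/c nude mice, which have no thymus and lack most T cells. Doxycycline, or its vehicle, was put in the drinking water once tumours had reached 100 mm3, and the tumours were taken after 7 days. The doxycycline-treated mice are those in which Omomyc was to be induced in the tumour cells, and the vehicle group bears the same tumours without the inducer. Each group has 4 tumours, 1 array each. Omomyc, a mutated bHLHZip domain of MYC, dimerises and occupies E-boxes in place of MYC. None of the groups analysed here received doxycycline without an inducible Omomyc, so effects of doxycycline and of Omomyc cannot be told apart.

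Immediate early genes are transcribed within minutes of a growth factor, cytokine, stress or mechanical signal, from factors already in the cell, and their transcripts are short-lived. Their steady level in a tumour reflects continuing input, much of it through the ERK pathway, which phosphorylates ternary complex factors bound with serum response factor (SRF), and through the actin-regulated SRF coactivators MRTFA and MRTFB. The EGR and KLF proteins are zinc finger transcription factors that bind GC-rich DNA, NR4A1 is an orphan nuclear receptor, IER2 is a nuclear regulator of transcription, and IER3 is a regulator of apoptosis and of ERK and NF-kB signalling. In melanoma cells, ERK signalling is often held high by mutations upstream of it, so that immediate early genes can be expressed without an added stimulus.

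The start regions of EGR1, KLF2 and KLF6 are shown because these are the measured members whose groups of tumours did not overlap. Each sequence is the 250 bases before the RefSeq transcription start (GRCh38.p14), 5′ to 3′ on the gene's strand, taken from chr5:138465229-138465478 (plus strand) for EGR1, chr19:16324576-16324825 (plus strand) for KLF2 and chr10:3785210-3785459 (minus strand) for KLF6. Capitals mark matches to 4 motifs searched on both strands: the CArG box, which SRF binds, the MEF2 box, which MEF2 factors bind, TGACGT, the core of the CREB site, and CACGTG, the E-box that MYC and Omomyc bind with MAX.
EGR1: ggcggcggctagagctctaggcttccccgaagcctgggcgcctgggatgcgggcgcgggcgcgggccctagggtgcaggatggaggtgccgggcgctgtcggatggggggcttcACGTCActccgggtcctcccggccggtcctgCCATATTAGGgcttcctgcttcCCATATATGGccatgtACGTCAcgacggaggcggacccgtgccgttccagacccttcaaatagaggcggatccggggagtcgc
KLF2: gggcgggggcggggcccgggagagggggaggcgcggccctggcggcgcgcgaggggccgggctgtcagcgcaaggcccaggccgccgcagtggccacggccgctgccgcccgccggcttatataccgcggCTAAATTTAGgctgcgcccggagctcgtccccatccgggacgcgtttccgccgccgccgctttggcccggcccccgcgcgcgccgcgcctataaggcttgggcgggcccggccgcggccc
KLF6: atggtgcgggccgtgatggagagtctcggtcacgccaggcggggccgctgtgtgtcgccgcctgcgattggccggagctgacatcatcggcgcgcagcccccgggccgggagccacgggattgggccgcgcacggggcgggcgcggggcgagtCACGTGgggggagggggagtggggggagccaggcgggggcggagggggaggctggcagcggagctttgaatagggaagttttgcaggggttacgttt
In EGR1 the CArG box matched at 105 to 96 and at 83 to 74 bases before the start, and TGACGT, on the opposite strand, at 136 to 131 and at 67 to 62. KLF2 held 1 MEF2 box, at 120 to 111 bases before the start, and KLF6 held 1 CACGTG, at 97 to 92. Of 35116 RefSeq start regions of the same length, 1.16% held a CArG box, 0.515% a MEF2 box, 6.34% CACGTG and 7.10% TGACGT. Start regions were found for 7 of the 10 genes, and not for EGR3, IER3 and KLF10. KLF4 also held 1 CACGTG, IER2 and both start regions of NR4A1 held none of the motifs, and the 3 start regions of EGR2 held 1 CArG box, 1 CACGTG and 1 TGACGT in all. A match describes these letters only, none of the matches overlapped another, and no binding was measured.

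The 8 arrays had medians between 5.02 and 5.13 in log2 units, no pair held identical values, and arrays correlated across genes at 0.961 to 0.982 within a group and at 0.933 to 0.955 between groups. MYC, part of which the transgene contains, measured 5.92, 5.42, 5.92 and 5.26 in vehicle tumours 1 to 4 and 5.49, 7.22, 7.74 and 6.78 in doxycycline tumours 1 to 4, so that doxycycline tumour 1 lay within the vehicle range. MYC was 1.18 ± 0.41 (SE) higher with doxycycline, which missed the threshold (limma adjusted p = 0.0987). Without doxycycline tumour 1 it was 1.62 higher (adjusted p = 0.0054), and it passed in 4 of 18 alternative settings. Omomyc itself was not measured here, so its induction in each tumour, doxycycline tumour 1 included, is not known. Vehicle tumour 2 and doxycycline tumour 1 had the lowest array weights of their groups, 0.502 and 0.728, where 1 is average. Doxycycline tumour 4 was close to the latter, at 0.786. Among melanocyte lineage markers, the transcription factors SOX10 and PAX3 averaged 6.53 and 6.0 in vehicle tumours, whereas the pigment genes MLANA, PMEL, TYR and TYRP1 averaged 2.93, 3.26, 2.21 and 2.42, near or below the lower quartile of the arrays (3.03 to 3.20 in vehicle). No melanocyte marker passed the limma test (0 of 9 measured, with 1 at an unadjusted p under 0.05), against 10.8% and 23.9% of all genes. The labels call the replicates biological, and with 4 arrays a group their number limits the precision.

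EGR1 was the clearest change among the 9 measured genes: it fell 3.43-fold in doxycycline tumours. KLF2 fell 1.66-fold, with a call that depended on single tumours, and no member passed as a rise. So 2 of 9 members (22.2%) passed limma at an adjusted p under 0.05, against 10.8% of all 17492 genes. Both were falls, which were 6.03% of all genes, and 0 of 9 rose, against 4.75%. At an unadjusted p under 0.05, 2 members lay higher (IER2 and KLF6) and 2 lower, 4 of 9, against 23.9% of all genes. In 3 of 9 (33.3%), EGR1, KLF2 and KLF6, the doxycycline tumours did not overlap the vehicle tumours, as in 17.7% of all genes (8.83% with doxycycline below and 8.86% above). The median log2 fold change of the members was -0.49, against 0.04 over all genes, with 5 below 0 and 4 above. These counts come from a small, chosen set and were not tested as a set. In bulk tumour RNA, fewer cells expressing a gene and less of its RNA per cell cannot be told apart.

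EGR1, the prototype early growth response factor, measured 7.49, 8.95, 7.42 and 8.18 (log2) in vehicle tumours 1 to 4. It measured 5.89, 6.31, 6.44 and 6.29 in doxycycline tumours 1 to 4. The highest doxycycline value lay below the lowest vehicle value, and the vehicle tumours were more spread, with vehicle tumour 2 the highest and doxycycline tumour 1 the lowest of all. The means were 8.01 ± 0.72 and 6.23 ± 0.24 (SD, n = 4), and the log2 fold change was -1.78 ± 0.32 (SE; 95% interval -2.48 to -1.08; limma adjusted p = 0.00512). It remained past the threshold in all 18 alternative settings, between -1.98 and -1.35, and was smallest without vehicle tumour 2 and doxycycline tumour 1 together (-1.35, adjusted p = 0.00889). 

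EGR3, a related factor that EGR1-inducing signals also induce, measured 3.11, 3.25, 3.44 and 3.62 in vehicle and 4.07, 3.27, 3.36 and 3.52 in doxycycline tumours. The groups overlapped, with only doxycycline tumour 1 above the vehicle range. The difference was 0.20 ± 0.22 (SE; 95% interval -0.28 to 0.68; limma adjusted p = 0.647). These values lie close to the lower quartile of the arrays. EGR4, the remaining family member on the array, was at -0.15 ± 0.29 (SE; adjusted p = 0.818). NAB1 and NAB2, co-repressors that bind EGR proteins, of which NAB2 is itself an EGR1 target, were at -0.31 ± 0.23 and -0.38 ± 0.21 (SE), and neither passed (limma adjusted p of 0.488 and 0.317).

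KLF2, a factor best known for quiescence in endothelial cells and T cells, measured 5.35, 5.88, 5.49 and 5.74 in vehicle tumours. It measured 4.58, 5.03, 5.14 and 4.78 in doxycycline tumours, all below the lowest vehicle value, with a gap of only 0.21 between the groups. The log2 fold change was -0.73 ± 0.20 (SE; 95% interval -1.17 to -0.30; limma adjusted p = 0.0375). The call was lost in 6 of 8 fits with 1 tumour left out, those without vehicle tumours 2, 3 or 4 or doxycycline tumours 1, 2 or 4 (adjusted p of 0.0794, 0.07, 0.0963, 0.0878, 0.0631 and 0.0833). It was also lost without vehicle tumour 2 and doxycycline tumour 1 together (-0.54, adjusted p = 0.139), with a trended and robust prior (0.0514) and after centring on ribosomal protein genes (-0.48, adjusted p = 0.183). The direction held in all 18 settings. Of 8 endothelial markers, 0 passed the limma test (2 at an unadjusted p under 0.05, both higher), and their median log2 fold change was 0.03. Of all genes 10.8% passed, with 12.5% higher and 11.4% lower at an unadjusted p under 0.05. Their summed log2 values were 28.2 to 30.6 in vehicle and 28.5 to 33.7 in doxycycline tumours, with TIE1 and PECAM1, the brightest, at -0.28 and -0.53. Such a sum is not an amount of RNA, since dim and bright genes count alike. The probes are designed to human transcripts, so RNA of mouse vessels is read only where it cross-hybridises, and its part in the KLF2 result was not tested.

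KLF6, a widely expressed growth-regulating factor, measured 9.03, 8.80, 8.85 and 9.36 in vehicle tumours and 9.60, 9.62, 9.57 and 9.42 in doxycycline tumours. All 4 doxycycline values lay above all vehicle values, by a gap of 0.06 from vehicle tumour 4. The log2 fold change of 0.54 ± 0.18 (SE; 95% interval 0.15 to 0.94) did not pass over all genes (limma adjusted p = 0.0830). It passed with a trended and robust prior (0.0176), without the dimmest 40% of genes (0.0395) and after centring on ribosomal protein genes (0.80, adjusted p = 0.0319), and in none of the 8 fits with 1 tumour left out (0.0518 to 0.189).

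KLF4, a factor of epithelial differentiation and of pluripotency, measured 5.07, 4.11, 5.45 and 4.43 in vehicle tumours and 4.12, 5.73, 5.62 and 6.16 in doxycycline tumours. Of the doxycycline tumours, 3 lay above the vehicle range and tumour 1 lay at its lower end. The difference was 0.64 ± 0.43 (SE; 95% interval -0.31 to 1.59; limma adjusted p = 0.416), and with 1 tumour left out it ranged from 0.39 (without doxycycline tumour 4) to 1.07 (without doxycycline tumour 1, adjusted p = 0.0682) and passed in none of the 8 fits. Without vehicle tumour 2 it was 0.42. Of 5 keratinocyte markers, another site of KLF4 expression, 0 passed with limma, also at an unadjusted p under 0.05 (0 of 5). Of all genes 10.8% passed, and 23.9% had an unadjusted p under 0.05. The median log2 fold change of the 5 was 0.33, against 0.04 over all genes, and the brightest, KRT5 and KRT14, were at 0.35 and 0.31. Their summed log2 values were 13.02 to 14.65 in vehicle and 14.6 to 15.9 in doxycycline tumours, and all 5 lay below the median level of all genes. RNA of mouse keratinocytes is read only where it cross-hybridises, and the part of these markers in the KLF4 values was not tested.

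KLF10, a TGF-beta-induced early gene, measured 7.90, 7.16, 8.12 and 7.59 in vehicle and 7.40, 7.25, 6.68 and 7.47 in doxycycline tumours. The groups overlapped, with vehicle tumour 2 below 3 of the 4 doxycycline tumours. The difference was -0.49 ± 0.25 (SE; 95% interval -1.05 to 0.06; limma adjusted p = 0.270). Of the other KLF genes measured, none passed the test as deposited. The nearest to it were KLF5, a factor of proliferating epithelium, at -0.85 ± 0.30 (SE; adjusted p = 0.101), and KLF11, the closest relative of KLF10, at -0.74 ± 0.30 (SE; adjusted p = 0.161), both named after their values were seen. KLF11 measured 6.64 in doxycycline tumour 1 and 5.38, 5.32 and 5.22 in the other 3, against 6.24 to 6.73 in vehicle. Without doxycycline tumour 1 the difference was -1.08 (limma adjusted p = 0.0073), a value given because that tumour had been seen to stand apart.

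IER2 measured 8.21, 7.92, 7.66 and 8.05 in vehicle and 8.60, 8.65, 8.34 and 8.18 in doxycycline tumours. Only doxycycline tumour 4 lay within the vehicle range. The difference of 0.48 ± 0.19 (SE; 95% interval 0.06 to 0.90) did not pass (limma adjusted p = 0.147), except after centring on ribosomal protein genes (0.74, adjusted p = 0.0425). IER3 measured 9.98, 11.01, 10.34 and 10.49 in vehicle and 9.22, 9.90, 10.23 and 10.12 in doxycycline tumours. As for EGR1, vehicle tumour 2 was the highest and doxycycline tumour 1 the lowest, but here the groups overlapped. The difference was -0.59 ± 0.28 (SE; 95% interval -1.20 to 0.02; limma adjusted p = 0.228). The IER2-related genes IER5 and IER5L were at 0.54 ± 0.26 and 0.69 ± 0.25 (SE), and neither passed (limma adjusted p of 0.250 and 0.114).

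NR4A1, an orphan nuclear receptor also called NUR77, measured 5.77, 6.01, 6.22 and 5.31 in vehicle and 5.43, 4.43, 5.55 and 5.74 in doxycycline tumours. The groups overlapped, and doxycycline tumour 2 was the lowest. The difference was -0.54 ± 0.30 (SE; 95% interval -1.21 to 0.13; limma adjusted p = 0.317), and without doxycycline tumour 2 it was -0.26. NR4A2 was at -0.48 ± 0.17 and NR4A3 at -0.23 ± 0.38 (SE), and neither passed (limma adjusted p of 0.106 and 0.779), although the groups did not overlap for NR4A2. They also did not overlap for KLF16, at -0.32 ± 0.16 (SE; limma adjusted p = 0.271), as in 17.7% of all genes. Over the 17 other EGR, IER, KLF and NR4A genes measured, 0 passed (limma; 1 higher and 3 lower at an unadjusted p under 0.05), with a median log2 fold change of -0.10. Of all genes 10.8% passed, with 12.5% higher and 11.4% lower at an unadjusted p under 0.05.

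**Figure D1:**
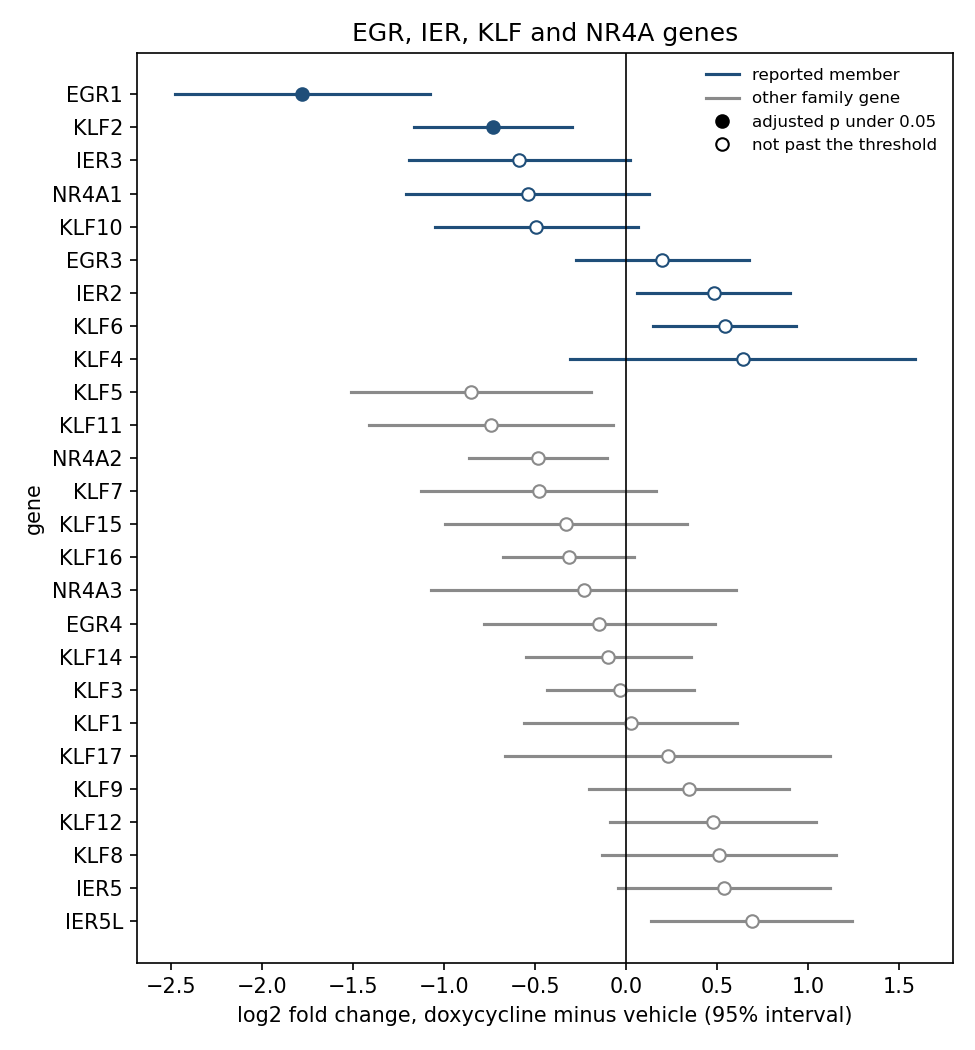
Log2 fold changes (doxycycline minus vehicle) with 95% intervals for the 9 measured members (blue) and 17 other genes of the same families (grey), filled where the limma adjusted p is under 0.05. EGR1, at -1.78, lies furthest from 0, and KLF2 is the only other filled point.

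Whether members of a family changed unequally was asked from their difference on the same array, which no scaling of an array can alter. Of 10 planned pairs, 8 could be compared, since EGR2 was not analysed here. The difference of EGR1 over EGR3 was 4.38, 5.70, 3.98 and 4.56 in vehicle tumours and 1.82, 3.03, 3.07 and 2.77 in doxycycline tumours, a change of -1.98 (95% interval -3.13 to -0.83). That of KLF2 over KLF6 was -3.68, -2.92, -3.37 and -3.62 in vehicle and -5.02, -4.59, -4.43 and -4.64 in doxycycline tumours, a change of -1.27 (95% interval -1.80 to -0.75). The difference of KLF6 over KLF10 went from 1.13, 1.63, 0.73 and 1.77 to 2.20, 2.37, 2.89 and 1.95, a change of 1.04 (95% interval 0.27 to 1.80). In these 3 pairs the groups did not overlap, and each gave an exact two-sided permutation p of 0.0286, the smallest that 4 against 4 allows. Adjusted over the 8 pairs that p is 0.0762, so no pair passed the threshold of 0.05. At this floor, 3 separated pairs among 8 could not pass after adjustment, however large their changes. The missed threshold is therefore no evidence that the members of a pair changed equally. Each separated pair holds EGR1, KLF2 or KLF6, whose groups did not overlap on their own, so these separations are not independent of those. How often pairs of other genes separate the groups was not counted.

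The remaining 5 pairs overlapped between the groups. The change was 1.07 (95% interval 0.05 to 2.09) for IER2 over IER3 and -1.37 (-2.75 to 0.0020) for KLF2 over KLF4, each with an exact permutation p of 0.0857. It was 1.13 (-0.13 to 2.40) for KLF4 over KLF10, -0.24 (-1.29 to 0.81) for KLF2 over KLF10 and 0.10 (-1.34 to 1.54) for KLF4 over KLF6, with exact permutation p of 0.143, 0.629 and 0.83. KLF4 varied in both groups, with an SD of 0.61 in vehicle and 0.89 in doxycycline tumours. Without doxycycline tumour 1, KLF2 over KLF4 (-1.70) and KLF4 over KLF10 (1.63) also separated the groups, which made 5 pairs of 8. Without vehicle tumour 1, IER2 over IER3 did (1.31). Leaving out a tumour can only remove overlap, so the number of separated pairs could not fall.

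**Figure D2:**
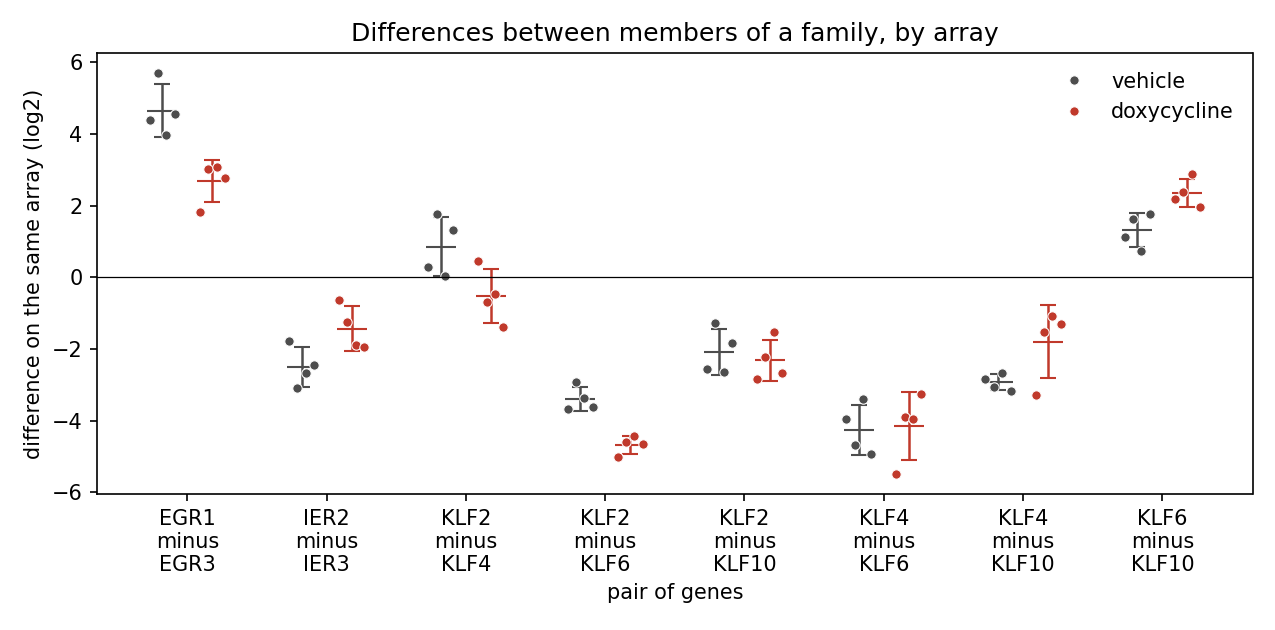
Difference in log2 value between 2 members of a family on the same array, with 1 point per tumour (vehicle grey, doxycycline red) and the mean ± SD of 4. The groups are separate for EGR1 minus EGR3, KLF2 minus KLF6 and KLF6 minus KLF10, and overlap in the other 5 pairs.

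Of 12 measured factors that act at immediate early promoters, 1 rose and 0 fell, against 4.75% and 6.03% of all genes. Their median log2 fold change was 0.05. MRTFA, the SRF coactivator released when actin polymerises, rose by 0.83 ± 0.18 (SE; limma adjusted p = 0.0144), from 6.17, 5.93, 6.14 and 5.71 to 6.72, 7.03, 6.88 and 6.63, without overlap. It passed in all 18 alternative settings (0.73 to 1.08). SRF itself, named after its value was seen, was at -0.30 ± 0.22 (SE), and MRTFB and MEF2D were at 0.49 ± 0.18 and 0.53 ± 0.26 (SE). None of the 3 passed (limma adjusted p of 0.448, 0.122 and 0.243), although the groups did not overlap for MRTFB.

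Among 11 other measured genes of the AP-1 group, the partners with which early factors share many promoters, 1 fell and 0 rose. Of all genes 6.03% fell and 4.75% rose, and the median of the AP-1 genes was 0.04. FOSL1, the FOS-related subunit most tied to sustained ERK activity, fell 3.57-fold (log2 fold change -1.84 ± 0.37, SE; limma adjusted p = 0.0100). It measured 8.53, 8.0, 8.47 and 8.17 in vehicle and 5.25, 6.90, 7.26 and 6.43 in doxycycline tumours, and passed in all 18 settings (-2.11 to -1.43). BATF3 and MAFF, at -0.68 ± 0.31 and -0.47 ± 0.17 (SE), did not pass (limma adjusted p of 0.210 and 0.101), although the groups did not overlap for MAFF. 

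Of 14 genes induced by ERK, mostly its feedback inhibitors, 0 passed the limma test, against 10.8% of all genes. At a limma unadjusted p under 0.05, 2 were higher and 2 lower, against 12.5% and 11.4% of all genes. The median of the 14 was -0.09. The largest differences ran both ways: ETV5 was at 0.77 ± 0.38, SPRY2 at 0.70 ± 0.29 and SPRY4 at -0.71 ± 0.22 (SE), with limma adjusted p of 0.252, 0.176 and 0.0727. Without doxycycline tumour 1, SPRY4 (-0.88) and the ERK phosphatase gene DUSP6 (-1.01), the latter named after its value was seen, passed as falls (limma adjusted p of 0.0267 and 0.0341). Whether these genes differ from EGR1 was not tested.

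Of 27 other immediate early genes measured, 4 fell and 2 rose, against 6.03% and 4.75% of all genes. Their median was 0.08. TRIB1, a pseudokinase that directs protein degradation, fell by 1.24 ± 0.24 (SE; limma adjusted p = 0.00794), from 7.62, 7.87, 7.07 and 7.26 to 5.94, 6.12, 6.07 and 6.73, and passed in all 18 settings. PTGS2, the inducible cyclooxygenase, fell by 2.49 ± 0.67 (SE; limma adjusted p = 0.0383). HBEGF, an EGF receptor ligand, fell by 1.49 ± 0.40 (SE; limma adjusted p = 0.0379). Vehicle tumour 2, where EGR1 was also highest, held the highest values of both, 8.97 for PTGS2 against 5.80 to 6.25 in the other vehicle tumours and 8.28 for HBEGF against 6.90 to 7.11. Without it PTGS2 was at -1.74 and passed (adjusted p = 0.0301), and HBEGF at -1.17 did not (0.0774). The fourth fall was that of NFKBIA, the NF-kB inhibitor (-1.23; adjusted p = 0.0154). ID3 and ID1, which BMP signals induce and whose products block other transcription factors, rose by 2.09 ± 0.56 and 1.00 ± 0.27 (SE; limma adjusted p of 0.0366 and 0.0397), and the groups overlapped for ID3. With 1 tumour left out, PTGS2, HBEGF, ID3 and ID1 passed in 3, 1, 3 and 1 of 8 fits.

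The genes whose 8 values, centred on the vehicle mean, lay closest to those of EGR1 were NFKB1, G0S2 and PLPP2, with root mean square differences of 0.262, 0.321 and 0.356 log2 units over the 8 arrays. NFKB1, which encodes an NF-kB subunit, averaged 7.37 ± 0.47 (SD, n = 4) in the vehicle group and 5.73 ± 0.17 with doxycycline. G0S2, an inhibitor of the triglyceride lipase of fat cells, measured 8.51 in vehicle tumour 2 and 7.0 to 7.06 in the other vehicle tumours, and PLPP2, a lipid phosphatase, was at -1.75. All of these fell (limma adjusted p of 0.00148, 0.00334 and 0.000302). For KLF2 the closest were JADE3 (0.106), VSTM5 (0.124) and NPHP4 (0.138), at -0.76, -0.64 and -0.74, of which JADE3 and NPHP4 passed (limma adjusted p of 0.0209, 0.0667 and 0.0410). Genes were chosen for this likeness out of all 17492, so their shared fall is not a further result.

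Markers of cells that also express these genes were read in the same fit. Host cells are mouse, so their RNA is read only where it cross-hybridises with the human probes. Whether the RNA of a marker came from host or tumour cells was not tested. Over all genes 4.75% rose and 6.03% fell, with 12.5% higher and 11.4% lower at a limma unadjusted p under 0.05. Of 8 myeloid markers 1 rose and 0 fell (4 higher and 0 lower at an unadjusted p under 0.05), with a median of 0.55. Their summed log2 values were 30.8 to 34.6 in vehicle and 33.8 to 40.02 in doxycycline tumours. LYZ, which encodes lysozyme, rose by 1.11 ± 0.22 (SE; limma adjusted p = 0.0102) without overlap. CD14, a monocyte receptor, was at 1.82 ± 0.52 (SE; adjusted p = 0.0507), and at 2.38 without doxycycline tumour 1 (adjusted p = 0.00268). The brightest, CD68 and ITGAM, were at 0.83 and 0.51 without passing. PTPRC and AIF1, defining markers of such cells, averaged 2.38 and 1.75 in vehicle and 1.91 and 2.24 in doxycycline tumours, below the lower quartile of the arrays. Of 7 lymphoid markers 0 passed with limma, also at an unadjusted p under 0.05, with CD79A and GZMB brightest (0.48 and 0.11). Their summed log2 values over the 7 markers were 21.9 to 24.3 in vehicle and 21.8 to 25.1 in doxycycline tumours. Of 7 fibroblast markers 3 rose and 0 fell (5 higher and 0 lower at an unadjusted p under 0.05), with a median of 1.25. Their summed log2 values were 38.6 to 46.5 in vehicle and 49.2 to 56.7 in doxycycline tumours. PDGFRA, a growth factor receptor, rose by 2.51 ± 0.56, and the collagen genes COL1A1 and COL1A2 rose by 1.25 ± 0.28 and 0.92 ± 0.21 (SE; limma adjusted p of 0.0158, 0.0150 and 0.0183), all without overlap. PDGFRB was at 1.41 ± 0.42 (SE; adjusted p = 0.0584), also without overlap. Without doxycycline tumour 1, PDGFRA, COL1A1 and COL1A2 still passed (limma adjusted p of 0.0369, 0.0349 and 0.044). Without vehicle tumour 2 and doxycycline tumour 1 together they did not (0.0755, 0.0642 and 0.079), whereas PDGFRB did (1.17, adjusted p = 0.0263). FAP and LUM, the brightest, were at 0.37 and 1.59 and did not pass. Melanoma cells can express fibroblast genes themselves, and the part of any of these markers in the EGR1 or KLF results was not tested. Of 8 markers of an undifferentiated melanoma state 1 rose and 2 fell, FOSL1 among the falls, with a median of 0.10. NGFR, a neural crest receptor, rose by 2.06 ± 0.53, and TEAD4, a partner of YAP, fell by 1.85 ± 0.27 (SE; limma adjusted p of 0.031 and 0.00142). The groups overlapped for NGFR, and without doxycycline tumour 1 it did not pass (1.98, limma adjusted p = 0.0687). The brightest, JUN and AXL, were at 0.13 and 0.63 and did not pass.

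**Figure D3:**
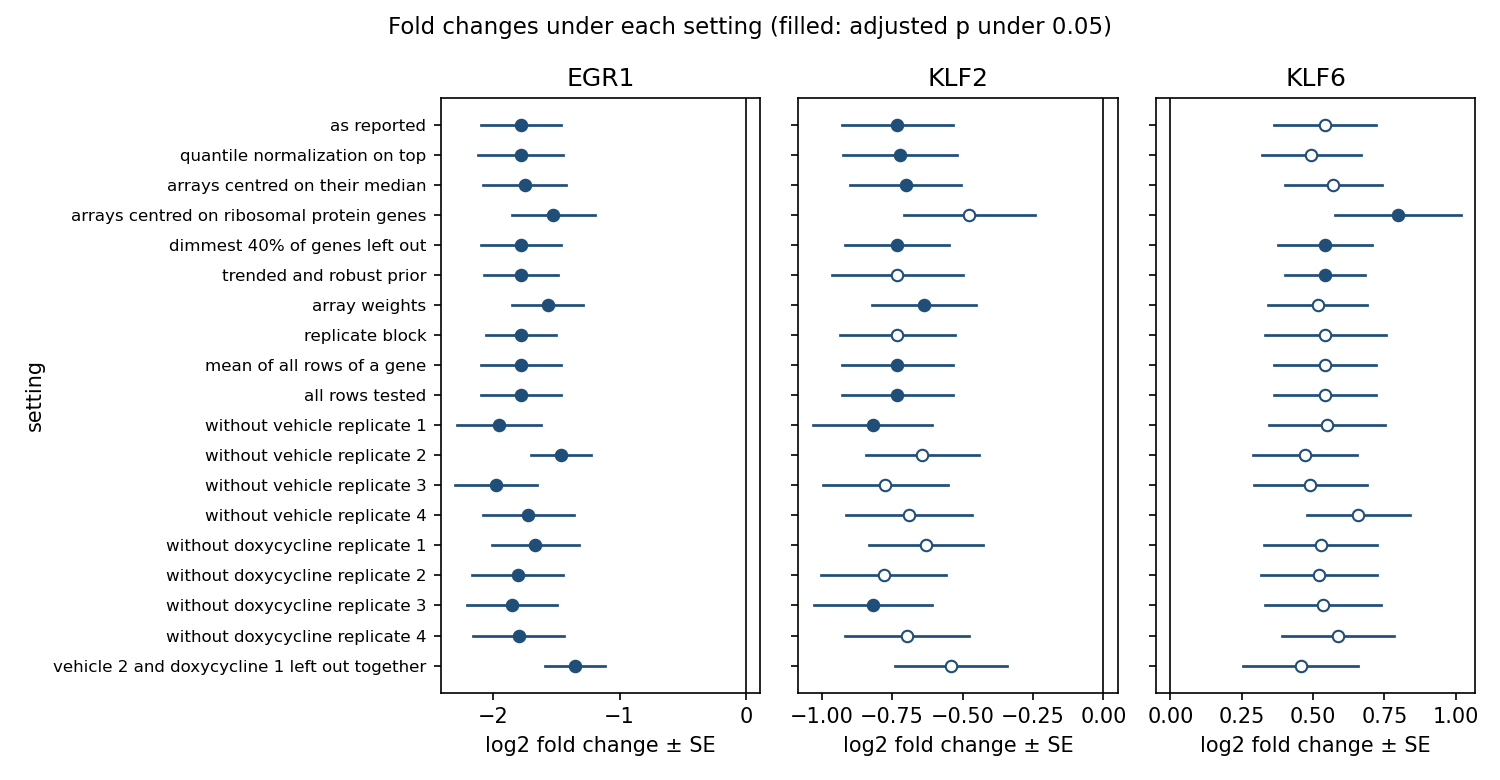
Log2 fold changes ± SE of EGR1, KLF2 and KLF6 as reported and in the 18 alternative settings, filled where the limma adjusted p is under 0.05. EGR1 is filled throughout, KLF2 in 8 of the 18 alternatives and KLF6 in 3, and none changes sign.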

How the data were processed

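The authors deposited log2 expression values. The submitters' processing notes give RMA as the method, with no version, probe definition or filter. RMA subtracts background, quantile-normalises the arrays and summarises probes, so a shift of most genes in 1 direction would be partly removed. The table has 18569 rows, of which 17511 carry 1 gene symbol, 0 several and 1058 none. For 17 genes with several rows the row with the highest mean was kept, which left 17492 genes. Groups and replicate numbers come from the titles. Doxycycline was compared with vehicle over all 17492 genes by a two-sided moderated test (limma 3.58.1, run under R 4.3.3). Benjamini-Hochberg adjusted p-values under 0.05 were called. Fold changes are doxycycline minus vehicle. Pairs of members were compared with an exact permutation test.

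The members and lists were chosen with earlier results of these data known. The rule for named genes took all members, the called genes of the same families and of the EGR co-repressors, from each further list the called gene with the smallest p in each direction and the 3 largest differences, the 2 brightest genes of each marker list, and the 3 genes closest in profile to each called member. Other genes were named, and counts at an unadjusted p added, after the values were seen. List counts leave out the members. The 18 alternatives changed the normalization, centring, filter, prior, array weights, block, rows per gene or arrays. Tested on simulated data for doxycycline against vehicle over 17492 genes, with 200 changed, the procedure called 30% of the genes shifted by 1 log2 unit and 90% where the shift was 2, with 8 false calls (6.25%). Start regions and motifs come from RefSeq (GRCh38.p14). The array annotation names no genome build, so no probe coordinates are given. Figures were drawn in Python 3.11.15.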

Additional observations from a re-analysis of the deposited data

Results flagged for a closer look

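Among 86 groups of 4 values checked (43 genes in 2 groups), 6 held an array far from the other 3. Chance flags about 1 in 20, so 6 is close to the number that chance alone would give. PTGS2, HBEGF and G0S2 were all high in vehicle tumour 2, at 8.97, 8.28 and 8.51, against 5.80 to 6.25, 6.90 to 7.11 and 7.0 to 7.06 in the other vehicle tumours. EGR1 was also highest in that tumour, at 8.95, but not far enough from the others to be picked out. G0S2 was checked only because its 8 values lay close to those of EGR1. Its high value there is therefore not separate from that of EGR1. BATF3 in doxycycline tumour 4 was 6.16, against 4.75 to 4.97, and FAP in the same tumour was 10.06, against 8.32 to 8.62. MAFF in vehicle tumour 3 was 6.29, against 6.17 to 6.18 in the others, a small gap in a tight group. None of the 9 measured members had such a value in either group.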

How the results depend on the processing

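EGR1 kept its direction and its call in all 18 alternatives, and KLF2 its direction in all and its call in 8. Centring on 31 ribosomal protein genes moved the median of all genes from 0.04 to 0.30, and the share of calls that fell from 55.9% to 26.6%. Those 31 genes themselves had a median log2 fold change of -0.27 with doxycycline (2 fell and 0 rose by limma). Centring on them therefore raises the fold change of every gene, that of EGR1 from -1.78 to -1.52. There 14.4% of all genes were called, against 10.8%, 2 members rose (IER2 and KLF6) and 1 fell (EGR1), and the counts were 1 in the family list (IER5L), 2 among upstream factors (MRTFA and MRTFB) and 2 in AP-1 (FOSL1 and JUND). Without the dimmest 40% of genes, where 21.3% were called, 1 member rose (KLF6), 2 AP-1 genes passed (FOSL1 and MAFF) and 2 ERK genes (DUSP5 and SPRY4). With a trended and robust prior (13.1% called) 1 member rose and 1 fell. With array weights (12.7% called) 2 ERK genes passed (DUSP5 and SPRY4). With the replicate number as a block 1 member was called, 1 fell (EGR1), KLF2 did not pass (adjusted p = 0.0731), and 1293 genes passed in place of 1884. Same-numbered tumours did not deviate together (correlations of -0.157 to 0.035), so the numbers were not taken to pair them. Without vehicle 2 and doxycycline 1, chosen after seeing the data, 1 member was called and 1 fell, 5 pairs separated, 1 family gene (KLF11) and 2 ERK genes (DUSP6 and SPRY4) passed. Over the fits with 1 tumour left out, genes called ranged from 1252 to 1760. Members called, and members that fell, ranged from 1 to 2. Separated pairs ranged from 3 to 5, a number that leaving out tumours cannot lower. List counts ranged from 0 to 1 (family), 0 to 2 (ERK), 1 to 2 (AP-1) and 3 to 5 (other immediate early). Among the genes named by the rule, differences that did not pass changed sign for EGR3 (-0.0066 without vehicle 2 and doxycycline 1). With 1 tumour left out they did so for JUN (-0.0059 to 0.29, lowest without doxycycline 2). They also did for GZMB (-0.14 to 0.27) and FAP (-0.0415 to 0.54), both lowest without doxycycline 4. Genes outside that rule changed sign as well, among them EGR4 (0.11), PMEL (0.19) and TYR (0.22) without vehicle 2. The causes were not tested. The table gives no background signal, so detection could not be judged.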

Other observations

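Some stress and early response genes, named here after their values were seen, varied among the doxycycline tumours more than among the vehicle tumours. DUSP1, a phosphatase that switches off stress kinases, measured 5.45 in doxycycline tumour 1 and 7.39, 8.70 and 8.12 in tumours 2 to 4, against 6.77 to 7.44 in vehicle. SGK1, a kinase induced by serum and glucocorticoids, measured 5.22 in doxycycline tumour 1 and 7.66, 8.54 and 8.62 in the others, against 6.89 to 7.58 in vehicle. ATF3, a stress-induced repressor, measured 3.46 and then 5.17, 5.58 and 6.5, against 5.01 to 5.24 in vehicle. KLF4 was likewise lowest in doxycycline tumour 1 of its group, and MYC, part of whose sequence the transgene contains, was at 5.49 there against 6.78 to 7.74 in the others. That tumour was not near the vehicle values in every gene. It held the lowest EGR1 (5.89) and FOSL1 (5.25) and the highest PDGFRA (7.15) of all tumours, and the highest KLF11 (6.64) of its group.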
